A study of Bos taurus with 6 samples.

Results

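The data examined cover 10 genes of excitation-contraction coupling and calcium handling in longissimus thoracis (LT) muscle of Korean cattle. They were taken by name as the main sarcoplasmic calcium genes of skeletal muscle, namely CACNA1S, RYR1, JPH1, ATP2A1, ATP2A2, SLN, PLN, CASQ1, CASQ2 and PVALB. All 10 were among the 22839 gene symbols of the count files, each on a row of its own, and all 10 were among the 15039 rows that passed the filter on low counts. Of these, 3 fast forms (ATP2A1, CASQ1 and PVALB) were contrasted with 3 slow forms (ATP2A2, CASQ2 and PLN), named for the type of muscle fibre in which each is mainly found.

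The study compared steers of the Hanwoo (Korean native cattle) breed that differed in the number of fine marbling particles (NFMP), counted by image analysis as small flecks of intramuscular fat on the cut LT surface. The high-NFMP group held steers 3-8, 10-8 and 10-9, aged 32.5, 33.8 and 34.5 months, and the low-NFMP group held steers 3-1, 3-3 and 10-16, aged 37.8, 33.7 and 35.4 months. All were raised conventionally on commercial feed, and 1 library was made per steer from LT tissue, which holds fat, connective tissue and vessels beside the fibres. The groups were chosen by the NFMP itself, and the sources used here do not say what the leading number of a steer's label (3 or 10) means.

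Excitation-contraction coupling turns the electrical signal of a muscle fibre into force. The voltage sensor in the transverse tubule opens the calcium release channel of the sarcoplasmic reticulum, calcium floods the cytosol and starts contraction, and a calcium pump named SERCA returns it to the store. Fast and slow fibres use different pumps, store proteins and cytosolic buffers, so that these genes are also used as signs of fibre type.

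The counts of a library summed to between 16283873 and 17192750 reads, and values are given as normalized counts, that is, reads scaled to the mean effective library size of the 6 libraries. Skeletal muscle genes were abundant in every library, with the 8 muscle reference genes (among them TTN and ACTA1) holding between 9.45% and 11.3% of the counts. Of the tested heart genes, TNNI3 lay between 13.0 and 58.8 and MYH6 between 926 and 1914 normalized counts. MYL7, which did not pass the filter on low counts, was at 0 in 5 steers and at 0.93 in steer 3-3. The 7 adipocyte markers summed to 11951 in steer 3-8, and to between 4720 and 6779 in the other 5 steers. Of these 7, 4 were higher with high NFMP at an unadjusted p below 0.05 by edgeR (ADIPOQ, CIDEC, LIPE and PLIN4). Of all tested genes, 11.5% had such a p in either direction. Among fibroblast, endothelial, smooth muscle, immune and nerve sheath markers, PDGFRA alone had an unadjusted p below 0.05 by edgeR, and it was lower with high NFMP (log2 fold change -0.51). Whether the share of fat in a sample had a part in the differences described here was not tested. In whole muscle, fewer fibres of a type cannot be told apart from less RNA of a gene per fibre.

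Of the 10 genes, only PVALB passed both limits used for differentially expressed genes (DEGs), a fold change above 2 and an unadjusted p below 0.05 in edgeR's quasi-likelihood test, which 3.9% of all tested genes passed. It was also the only one of the 10 at an unadjusted p below 0.05, where 11.5% of all tested genes stood. None of the 10 reached a Benjamini-Hochberg adjusted p below 0.05, which 0.685% of all tested genes reached, and none had groups of 3 steers that did not overlap, which was seen in 17.1% of all tested genes. The median log2 fold change (high over low NFMP) was 0.13 for the 10 genes and 0.02 for all tested genes. The 3 fast forms lay above 0, with a median of 0.24, and the 3 slow forms lay below 0, with a median of -0.18, but 5 of these 6 differences had a 95% interval that included 0. Outside CASQ2 and PVALB, all 8 intervals lay within a 2-fold change in either direction.

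**Figure D1:**
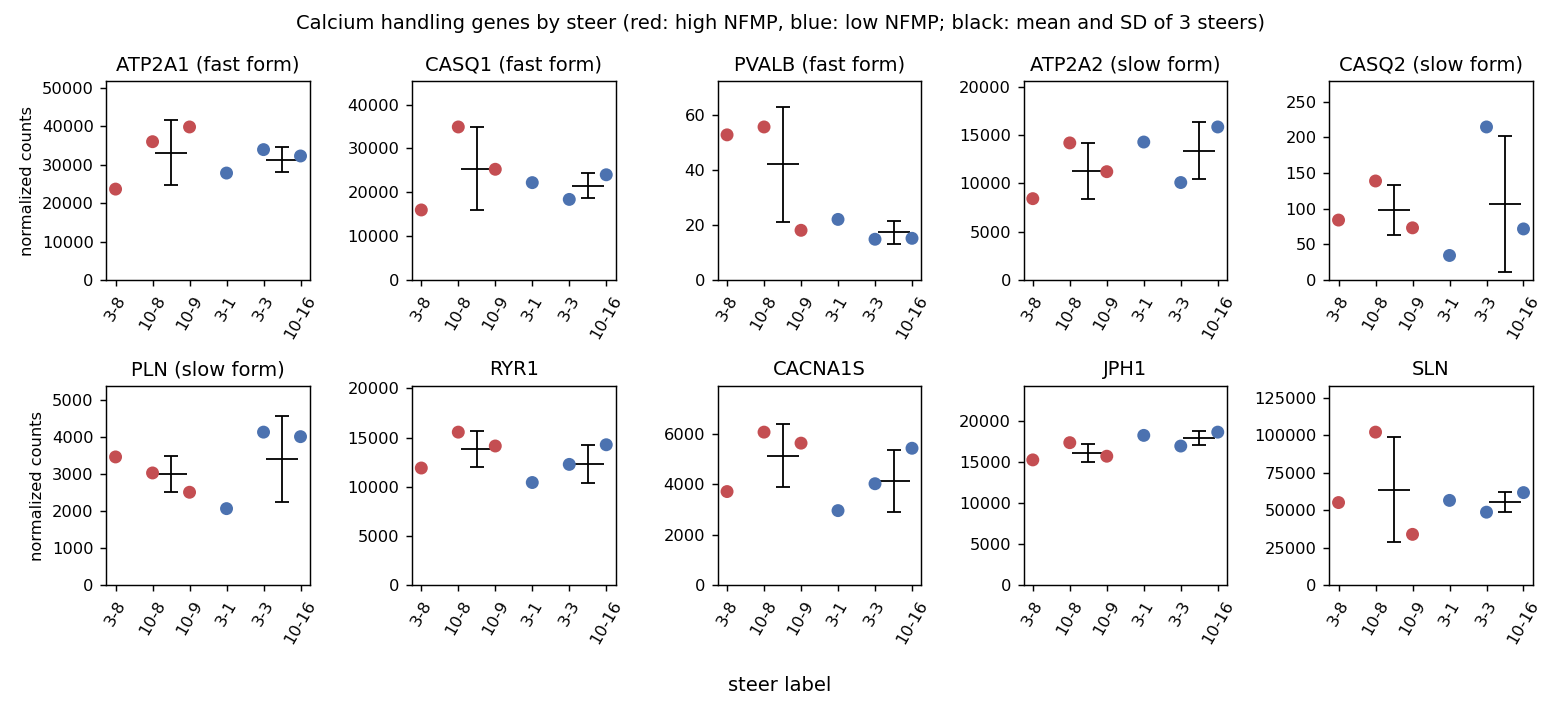
Normalized counts (y axis, from 0) of the 10 genes in each steer (x axis, steer label), with red points for high and blue points for low NFMP, and the black bar and whiskers giving the mean and SD of the 3 steers of a group. In every panel the red and blue points overlap in range, and PVALB stands apart only in steers 3-8 and 10-8, at 52.7 and 55.6.

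Release begins at the voltage sensor, whose pore-forming subunit is encoded by CACNA1S. CACNA1S was at 3719, 6079 and 5641 normalized counts in high-NFMP steers 3-8, 10-8 and 10-9, and at 2963, 4030.0 and 5439 in low-NFMP steers 3-1, 3-3 and 10-16. Steer 3-1 was lowest, while steers 3-3 and 10-16 lay inside the high-NFMP range. Its log2 fold change was 0.31 (standard error 0.244, 95% interval -0.21 to 0.84, adjusted p = 0.662 by edgeR).

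RYR1 encodes the release channel that the voltage sensor opens. It was at 11906, 15551 and 14143 normalized counts in the high-NFMP steers 3-8, 10-8 and 10-9 and at 10433, 12274 and 14269 in the low-NFMP steers 3-1, 3-3 and 10-16. The order of the steers was close to that of CACNA1S, with steer 10-8 highest and steer 3-1 lowest for both genes. In both, each steer whose label begins with 10 lay above each steer whose label begins with 3. RYR1 had a log2 fold change of 0.17 (95% interval -0.26 to 0.60, adjusted p = 0.781 by edgeR), which was 0.061 without steer 3-1 and 0.32 without steer 10-16. With the leading number of the label as a term in the fit, the log2 fold change was 0.098 for CACNA1S and 0.063 for RYR1.

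JPH1 encodes junctophilin, which holds the transverse tubule and the sarcoplasmic reticulum together. Its level was 15281, 17381 and 15729.7 normalized counts in the high-NFMP steers 3-8, 10-8 and 10-9, against 18269.8, 16970.3 and 18666 in the low-NFMP steers 3-1, 3-3 and 10-16. Only the order of steers 10-8 and 3-3 kept the groups from separating, with the high-NFMP values otherwise below. JPH1 varied least of the 10 genes, with a ratio of 1.22 between the highest and the lowest steer, against a median of 1.93 over all tested genes. Its log2 fold change was -0.16 (95% interval -0.55 to 0.24, adjusted p = 0.785 by edgeR), and it was -0.095 without steer 10-16 and -0.083 with scaling to muscle reference genes.

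The calcium pump is encoded by ATP2A1 in fast fibres (SERCA1) and by ATP2A2 in slow fibres (SERCA2). ATP2A1 was at 23691, 36041 and 39878 normalized counts in the high-NFMP steers 3-8, 10-8 and 10-9 and at 27868, 33976 and 32317 in the low-NFMP steers 3-1, 3-3 and 10-16. The high-NFMP group held both the lowest and the highest steer, and the log2 fold change was 0.08 (95% interval -0.40 to 0.56, adjusted p = 0.913 by edgeR). For ATP2A2 the high-NFMP values were 8424, 14193 and 11218 and the low-NFMP values 14284, 10093 and 15845. Steer 3-8 was again lowest and steer 10-16 highest, with steers 10-8, 10-9 and 3-3 each inside the range of the other group. ATP2A2 had a log2 fold change of -0.25 (95% interval -0.75 to 0.25, adjusted p = 0.718 by edgeR). It was -0.080 without steer 3-8 and -0.076 without steer 10-16, and -0.42 without steer 3-3 and -0.41 without steer 10-8.

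SERCA is held back by small membrane proteins, among them sarcolipin (SLN) and phospholamban (PLN), the latter found mainly in slow fibres and heart. SLN was at 55213, 102245 and 33968 normalized counts in the high-NFMP steers 3-8, 10-8 and 10-9 and at 56647, 48777 and 61862 in the low-NFMP steers 3-1, 3-3 and 10-16. The high-NFMP group held both ends of the range, a ratio of 3.01 between steers 10-8 and 10-9, while the 3 low-NFMP steers lay between them. The log2 fold change of SLN, 0.19 (95% interval -0.52 to 0.91, adjusted p = 0.852 by edgeR), fell to -0.30 when steer 10-8 was left out.

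PLN was at 3462, 3029 and 2508 normalized counts in the high-NFMP steers 3-8, 10-8 and 10-9 and at 2067, 4131 and 4009 in the low-NFMP steers 3-1, 3-3 and 10-16. Steer 3-1, which was the oldest, was lowest and the other two low-NFMP steers were highest. PLN had a log2 fold change of -0.18 (95% interval -0.71 to 0.35, unadjusted p = 0.474, adjusted p = 0.815 by edgeR). With age as a term in the fit it was -0.64 (unadjusted p = 0.0211, adjusted p = 0.477 by edgeR), while it was -0.02 both without steer 3-3 and without steer 10-16, and -0.44 without steer 3-1.

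Calsequestrin stores calcium inside the sarcoplasmic reticulum, as CASQ1 in fast fibres and together with CASQ2 in slow fibres and heart. CASQ1 was at 15983, 34909.6 and 25258 normalized counts in the high-NFMP steers 3-8, 10-8 and 10-9 and at 22215, 18387 and 24007 in the low-NFMP steers 3-1, 3-3 and 10-16. Steer 3-8 was lowest of all and steers 10-8 and 10-9 were the highest, so the low-NFMP steers lay between. CASQ1 had a log2 fold change of 0.24 (95% interval -0.31 to 0.79, adjusted p = 0.760 by edgeR). It was 0.48 without steer 3-8 (unadjusted p = 0.0414 by edgeR) and -0.02 without steer 10-8. Each steer whose label begins with 10 lay above each steer whose label begins with 3. With that leading number as a term in the fit, the log2 fold change of CASQ1 was -0.0096.

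CASQ2 was counted on few reads, with 83, 125 and 73 in high-NFMP steers 3-8, 10-8 and 10-9, against 36, 232 and 71 in low-NFMP steers 3-1, 3-3 and 10-16. Both its lowest and its highest steer were low-NFMP, and after normalization they differed by a ratio of 6.23, the widest of the 10 genes. For CASQ2 the log2 fold change was -0.12 with a 95% interval from -1.49 to 1.25 (adjusted p = 0.956 by edgeR), so that a difference of 2-fold in either direction was not detectable here. Without steer 3-3 it was 0.89, and with age as a term in the fit it was -0.80 (unadjusted p = 0.0746 by edgeR).

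PVALB encodes parvalbumin, a soluble protein that binds calcium in the cytosol of fast fibres and speeds relaxation. It was counted on 52, 50 and 18 reads in the high-NFMP steers 3-8, 10-8 and 10-9 and on 23, 16 and 15 reads in the low-NFMP steers 3-1, 3-3 and 10-16. Steers 3-8 and 10-8 lay above the rest, while steer 10-9 fell below low-NFMP steer 3-1. The exact Poisson 95% intervals of these last counts, 10.7 to 28.4 reads for steer 10-9 and 14.6 to 34.5 reads for steer 3-1, cover counting error only.

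Mean PVALB was 42.1 ± 20.9 normalized counts with high NFMP and 17.3 ± 4.06 with low NFMP (both SD, n = 3). This gave a log2 fold change of 1.27 (standard error 0.483, 95% interval 0.24 to 2.30, unadjusted p = 0.0190, adjusted p = 0.322 by edgeR), and PVALB ranked 888 among the tested genes by p. The unadjusted p was 0.0781 without steer 3-8, 0.0757 without steer 10-8, 0.0572 without steer 3-3 and 0.0859 with age as a term, and below 0.05 in the 12 other alternatives tried. After quantile normalization the log2 fold change was 0.67, under the fold threshold.

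**Figure D2:**
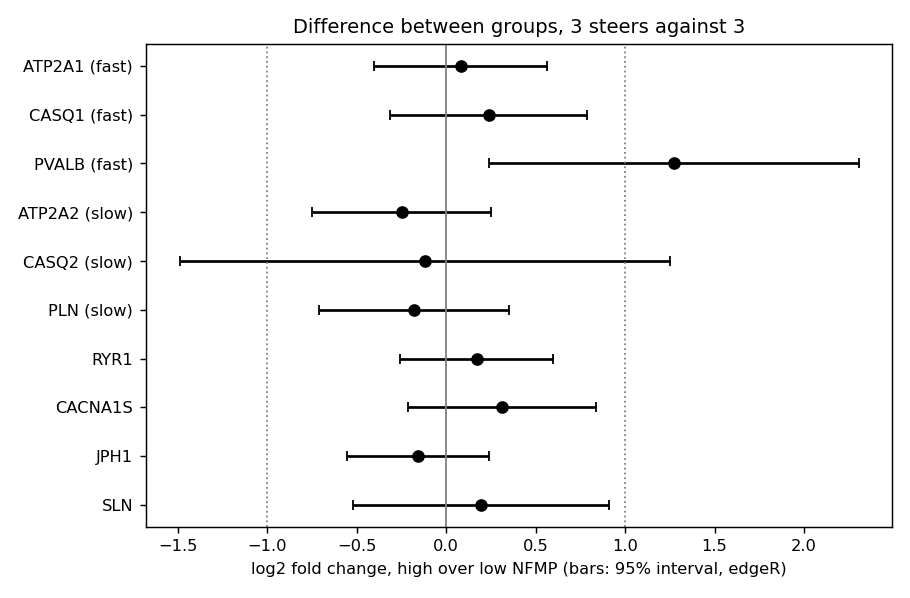
Log2 fold change of the 10 genes between high and low NFMP (x axis, points) with 95% intervals from edgeR (bars), 3 steers against 3, with a solid line at 0 and dotted lines at a 2-fold change. The interval of PVALB, 0.24 to 2.30, is the only one that leaves out 0, and that of CASQ2, -1.49 to 1.25, is the widest.

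Of the 10 genes, 5 share their place with another counted gene in the gene table of RefSeq for cattle assembly ARS-UCD2.0, and the sources used here do not say if reads were counted by strand. The long noncoding RNA gene LOC101906435 overlaps PVALB and was counted on 53, 50 and 23 reads in steers 3-8, 10-8 and 10-9 and on 23, 20 and 18 reads in steers 3-1, 3-3 and 10-16, never fewer than PVALB and at most 5 more. The 2 genes therefore gave close to the same result, with a log2 fold change of 1.17 for LOC101906435 (unadjusted p = 0.0183, adjusted p = 0.317 by edgeR). The groups of LOC101906435 did not overlap, with steer 10-9 (both counted on 23 reads) just above steer 3-1 after normalization, whereas those of PVALB did. Which of them the reads came from cannot be told apart.

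The same held for CASQ1, since the long noncoding RNA gene LOC101902959, which overlaps it by 30 bases in that table, had between 100.2% and 100.8% of the reads of CASQ1 in every library. RABEP2 overlaps ATP2A1 by 47 bases and had between 74.5% and 84.3% of its reads. PLN lies within CEP85L, whose count exceeded that of PLN by between 1101 and 1745 reads in every steer. By contrast, ANAPC7 overlaps ATP2A2 and had between 1.60% and 3.31% of its reads. No overlapping gene with counts was found for CACNA1S, RYR1, JPH1, SLN or CASQ2, and genes that lay within 5000 bases of one of the 10 without overlap had at most 1.64% of its reads, apart from PEA15 beside CASQ1 with between 2.43% and 7.68%.

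**Figure D3:**
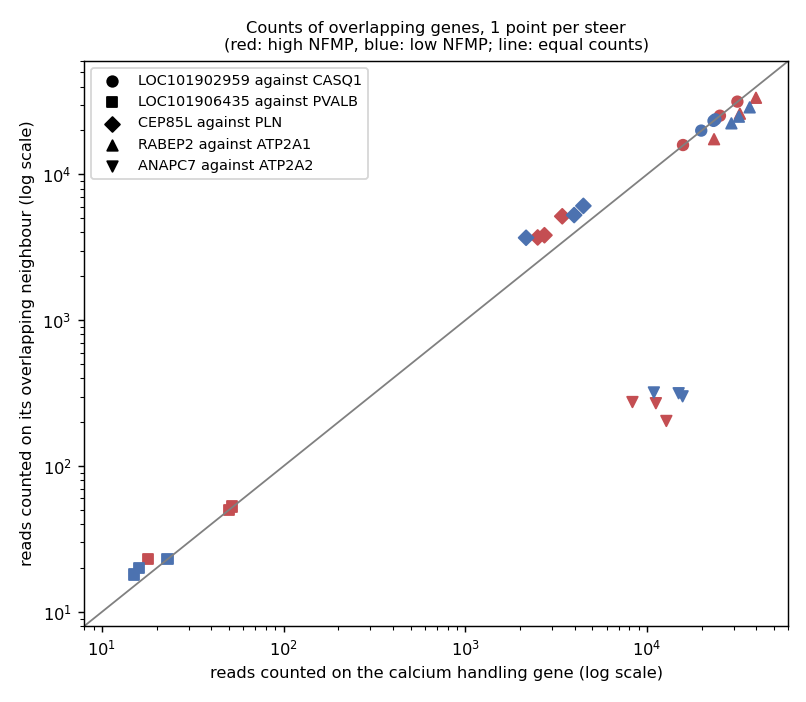
Reads counted on an overlapping neighbour (y axis, log scale) against reads counted on the calcium handling gene (x axis, log scale), 1 point per steer, red for high and blue for low NFMP, with a line at equal counts. The points of CASQ1 and PVALB lie on or near the line, those of PLN lie above it by 1101 to 1745 reads, and those of ATP2A2 lie far below it.

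The balance of slow and fast forms was compared within each library as a ratio of read counts, which needs no scaling of libraries. These ratios can be compared between steers, but not read as the ratio of molecules, because the number of reads per molecule may differ between genes. The reads of ATP2A2 came to 35.6%, 39.4% and 28.1% of those of ATP2A1 in high-NFMP steers 3-8, 10-8 and 10-9, and to 51.3%, 29.7% and 49.0% in low-NFMP steers 3-1, 3-3 and 10-16. Steers 3-1 and 10-16 lay above all the high-NFMP steers, and steer 3-3 lay among these.

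As a log2 ratio, the slow pump against the fast pump was -1.56 ± 0.25 with high NFMP and -1.25 ± 0.44 with low NFMP (both SD, n = 3). The difference of -0.31 gave p = 0.3 in a two-sided exact permutation test, in which 3 steers against 3 cannot give a p below 0.1. With a steer left out it ran from -0.17 (without steer 3-1, or without steer 10-9) and -0.20 (without steer 10-16) to -0.56 (without steer 3-3). It was -0.13 among the steers whose label begins with 3 and -0.56 among those whose label begins with 10.

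For calsequestrin, the reads of CASQ2 were 0.526%, 0.398% and 0.290% of those of CASQ1 with high NFMP and 0.155%, 1.17% and 0.299% with low NFMP, in the same order of steers. The low-NFMP group spanned the high-NFMP group on both sides, through steers 3-1 and 3-3. The mean log2 ratio differed by 0.05 between the groups (two-sided exact permutation p = 1.0).

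PLN and PVALB are a slow and a fast gene but not forms of one protein. Their log2 ratio was 6.02, 5.75 and 7.08 with high NFMP and 6.52, 8.08 and 8.00 with low NFMP. Steer 3-1 lay below steer 10-9, which made the groups overlap. The difference of the means was -1.25 (two-sided exact permutation p = 0.2), with the few reads of PVALB behind each value.

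The mean log2 level of the 3 slow forms minus that of the 3 fast forms was -1.01, -1.19 and -1.06 with high NFMP and -1.25, -0.03 and -0.47 with low NFMP. The high-NFMP steers lay close together, at -1.08 ± 0.09, and the low-NFMP steers were spread, at -0.58 ± 0.62 (both SD, n = 3), with steer 3-1 below all 3 high-NFMP steers. No test was made of this sum over chosen genes. It equals the mean of the 3 log2 ratios above, whose differences between the groups were -0.31, 0.05 and -1.25. The largest of these is that of PLN to PVALB, which rests on the few reads of PVALB. Singly, the 3 ratios had SDs of 0.25, 0.43 and 0.70 with high NFMP, each wider than that of their mean. Without steer 3-3 the difference between the groups in this mean went from -0.50 to -0.22, and without steer 3-1 it went to -0.84.

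**Figure D4:**
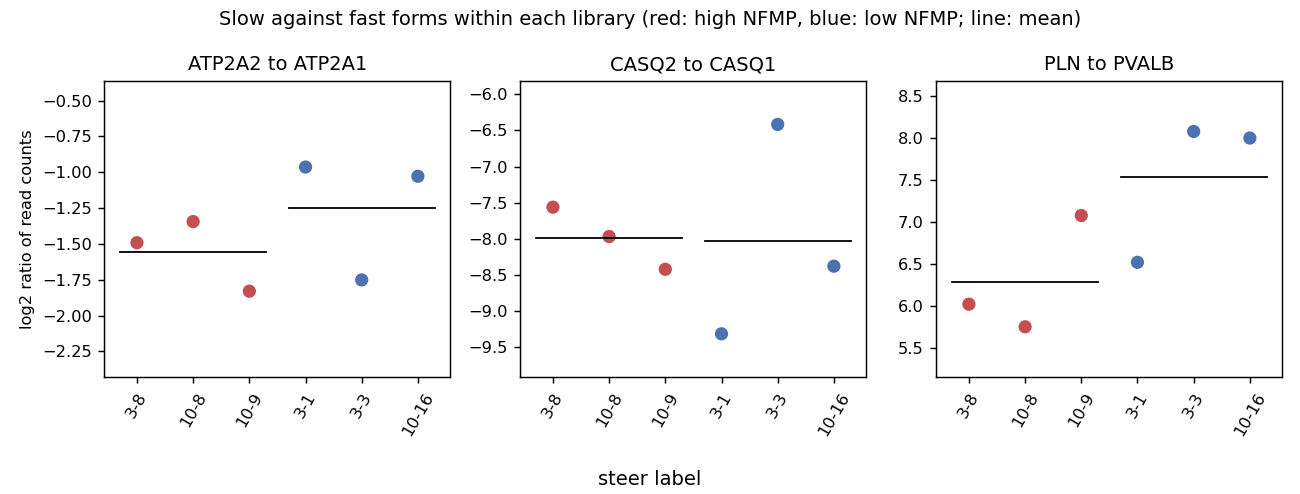
Log2 ratio of read counts of a slow to a fast gene (y axis, a separate range in each panel) in each steer (x axis), red for high and blue for low NFMP, with a line at the mean of each group. In all 3 panels the groups overlap, with differences of -0.31, 0.05 and -1.25 between the means.

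The contractile proteins of slow and fast fibres were set beside these ratios. Of 8 slow sarcomere genes tested, MYL3 was lower with high NFMP (log2 fold change -0.78, unadjusted p = 0.00253, adjusted p = 0.145 by edgeR) and none was higher at an unadjusted p below 0.05, with a median log2 fold change of 0.05. Of 10 fast sarcomere genes, none had an unadjusted p below 0.05, and the median was 0.07. The summed slow genes ran from 157588 to 242978 normalized counts in the high-NFMP and from 162806 to 212087 in the low-NFMP group, and the summed fast genes from 406975 to 589216 and from 429847 to 522815. Steer 3-8 was lowest and steer 10-8 highest in both sums.

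Each steer held the highest or the lowest value of at least 1 of the 10 genes. Steer 10-8, the highest also in the summed sarcomere genes, had the highest value for 5 of them (CASQ1, RYR1, CACNA1S, PVALB and SLN) and the lowest for none. Steer 3-8, the lowest in those sums, had the lowest value for 4 (ATP2A1, ATP2A2, CASQ1 and JPH1), and steer 3-1 for another 4 (CASQ2, RYR1, CACNA1S and PLN). Summed, the 10 genes were at 137815 normalized counts in steer 3-8 and 229624 in steer 10-8, with the other 4 steers between 148435 and 176500.

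Of the 45 pairs of these genes, the log2 ratio varied least over the 6 libraries for ATP2A1 and RYR1 (SD 0.199), for RYR1 and CACNA1S (SD 0.201) and for RYR1 and JPH1 (SD 0.241). It varied most for CASQ2 and PVALB (SD 1.19), ATP2A2 and CASQ2 (SD 1.07) and ATP2A2 and PVALB (SD 1.00). RYR1 and JPH1 each varied little on their own (SD 0.211 and 0.115 on the log2 scale), and the SD of a ratio is small for such genes whether or not they move together. The wide pairs all held CASQ2 or PVALB, which had the fewest reads of the 10 genes.

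Other genes of the pathway were taken from 8 lists holding 93 gene names, of which 90 were in the count files and 84 were tested. By edgeR, 11 of the 84 (13.1%) had an unadjusted p below 0.05, near the 11.5% of all tested genes. Of these, 9 were lower and 2 were higher in the high-NFMP group, while over all tested genes 863 were lower and 862 higher. In 13 of the 84 (15.5%, against 17.1% of all tested genes) the groups did not overlap, each time with the high-NFMP steers below, while over all tested genes they lay below in 1378 and above in 1199. No test was made of these directions. The median log2 fold change over the 84 genes was 0.05. Without steer 3-8 the number at an unadjusted p below 0.05 was 22 (25.9%, against 15.3% of all genes tested in that fit), and without steer 10-9 it was 6 (7.06%, against 10.2%).

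MRLN and CHRNA1 alone of the 84 genes (2.38%) reached an adjusted p below 0.05, against 0.685% of all tested genes. They were also the only 2 past the limits on p and fold change, which 3.9% of all tested genes passed. The lists were chosen with earlier results of these data known, so these shares are no test of the pathway. MRLN encodes myoregulin, a micropeptide of skeletal muscle that inhibits SERCA as SLN and PLN do. It was at 699, 495 and 538 normalized counts in high-NFMP steers 3-8, 10-8 and 10-9 and at 1319.5, 1247 and 1154 in low-NFMP steers 3-1, 3-3 and 10-16. All 3 high-NFMP steers lay below all 3 low-NFMP steers, with a wide gap between the groups.

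Mean MRLN was 577 ± 108 with high NFMP and 1240.3 ± 83.0 with low NFMP (both SD, n = 3). The log2 difference for MRLN was -1.10 (standard error 0.191, 95% interval -1.51 to -0.70, adjusted p = 0.0159 by edgeR). With a steer left out it lay between -1.27 and -0.98. The adjusted p was above 0.05 without steer 10-8 (0.0698), without steer 10-9 (0.0516), without steer 3-3 (0.0931), with age as a term (0.113), after quantile normalization (0.0608) and with scaling to muscle reference genes (0.0715), while the unadjusted p was below 0.05 in all 16 alternatives. The reads of MRLN came to between 1.35% and 2.95% of those of ATP2A1 in the high-NFMP steers and between 3.57% and 4.73% in the low-NFMP steers. The other names of that list (STRIT1, SMIM6 and ERLN) were not among the gene symbols of the count files.

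CHRNA1, the only one of 14 tested genes of sarcolemma excitation at an unadjusted p below 0.05, encodes the alpha subunit of the acetylcholine receptor, which receives the signal of the motor nerve. CHRNA1 was at 482, 813 and 730.1 normalized counts in high-NFMP steers 3-8, 10-8 and 10-9 and at 1645, 2153 and 1183 in low-NFMP steers 3-1, 3-3 and 10-16. The groups did not overlap, with steer 10-16 the nearest of the low-NFMP steers. Its log2 fold change was -1.30 (standard error 0.247, 95% interval -1.83 to -0.77, adjusted p = 0.0301 by edgeR), and between -1.46 and -1.07 with a steer left out. The adjusted p was below 0.05 in 7 of 16 alternatives, and of the 6 that left out a steer only in that without steer 10-16 (0.0286). It was 0.123 with the leading number of the label as a term, 0.153 with age as a term and at most 0.162, without steer 3-3.

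Of the 22 genes of the voltage sensor and triad, 15 lay above 0 and 7 below, and 3 had an unadjusted p below 0.05. Triadin (TRDN), which anchors calsequestrin to the release channel, was at 6242, 5181 and 4184 normalized counts in the high-NFMP steers 3-8, 10-8 and 10-9 and at 6873, 8514 and 7943 in the low-NFMP steers 3-1, 3-3 and 10-16. TMEM38B, a potassium channel of the store membrane, was at 1249, 1148 and 821 with high NFMP and at 1432, 1671 and 1738 with low NFMP. In both genes every high-NFMP steer lay below every low-NFMP steer.

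On the log2 scale, the fold change was -0.58 for TRDN (unadjusted p = 0.0111, adjusted p = 0.266 by edgeR) and -0.59 for TMEM38B (unadjusted p = 0.00907, adjusted p = 0.251 by edgeR). The unadjusted p of TMEM38B was below 0.05 in all 16 alternatives and that of TRDN in 15. JPH2, the second junctophilin of skeletal muscle, went the other way from these, at 6967 ± 1083 with high NFMP and 5196 ± 529 with low NFMP (both SD, n = 3, log2 fold change 0.42, unadjusted p = 0.0434, adjusted p = 0.420 by edgeR). JPH2 kept an unadjusted p below 0.05 in 7 of the 16. JPH1 and JPH2 thus had differences of opposite sign, neither at an adjusted p below 0.05.

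Store-operated entry refills the sarcoplasmic reticulum from outside the cell through the sensor STIM1 and the channel ORAI1. STIM1 was at 1179.6, 1231 and 1278 normalized counts in the high-NFMP steers 3-8, 10-8 and 10-9 and at 1736, 1527 and 1633 in the low-NFMP steers 3-1, 3-3 and 10-16, with no overlap. Its log2 fold change was -0.41 (unadjusted p = 0.0287, adjusted p = 0.367 by edgeR). ORAI1 was at 359 ± 107 with high NFMP and 249 ± 40.4 with low NFMP (both SD, n = 3, log2 fold change 0.53, unadjusted p = 0.0491, adjusted p = 0.434 by edgeR), its groups overlapped, and it kept an unadjusted p below 0.05 in 8 of 16 alternatives, against 10 for STIM1. The differences of the sensor and the channel had opposite signs, neither at an adjusted p below 0.05. SARAF, which turns the entry off and had the most reads of the 7 genes, had a log2 fold change of -0.40 (95% interval -0.81 to 0.01).

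Among 7 tested relatives of the 10 genes, the heart release channel RYR2 and the inositol trisphosphate receptor ITPR2 were lower at an unadjusted p below 0.05, without overlap of the groups. RYR2 had a log2 fold change of -0.65 (unadjusted p = 0.0401, adjusted p = 0.410 by edgeR), which was -0.22 without steer 10-16, where it stood at 273 normalized counts against 110.0 to 139 in the other 5 steers. ITPR2, which had the most reads of this list, had a log2 fold change of -0.47 (unadjusted p = 0.0404, adjusted p = 0.411 by edgeR), and it kept an unadjusted p below 0.05 in 7 of 16 alternatives. Without steer 10-8 it was -0.26 (unadjusted p = 0.209 by edgeR), and without steer 3-8 it was -0.72. ATP2A3, JPH3 and JPH4 did not pass the filter.

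In the mitochondrial uptake list, MCUB, a subunit that dampens the calcium uniporter, was at 18.3 ± 2.56 with high NFMP and 35.4 ± 11.1 with low NFMP (both SD, n = 3, log2 fold change -0.94, unadjusted p = 0.0446, adjusted p = 0.424 by edgeR). MCUB rests on 15 to 52 reads a library and kept an unadjusted p below 0.05 in 10 of 16 alternatives. The other 11 genes of the list, with VDAC3 the most counted (log2 fold change 0.20), did not pass. In the calcineurin and calmodulin kinase list of 16 genes, only the calcineurin catalytic subunit PPP3CC passed, at 929 ± 21.8 with high NFMP and 1264 ± 46.2 with low NFMP (both SD, n = 3, log2 fold change -0.44, unadjusted p = 0.0188, adjusted p = 0.321 by edgeR), and it kept an unadjusted p below 0.05 in 13 of 16 alternatives. MYOZ1, the calcineurin-binding protein of fast fibres and the most counted gene of that list, had a log2 fold change of 0.08 (95% interval -0.40 to 0.56). None of the 5 tested genes of calcium extrusion across the plasma membrane had an unadjusted p below 0.05 by edgeR, ATP2B1 having the most reads and a log2 fold change of -0.11 (95% interval -0.48 to 0.27).

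**Figure D5:**
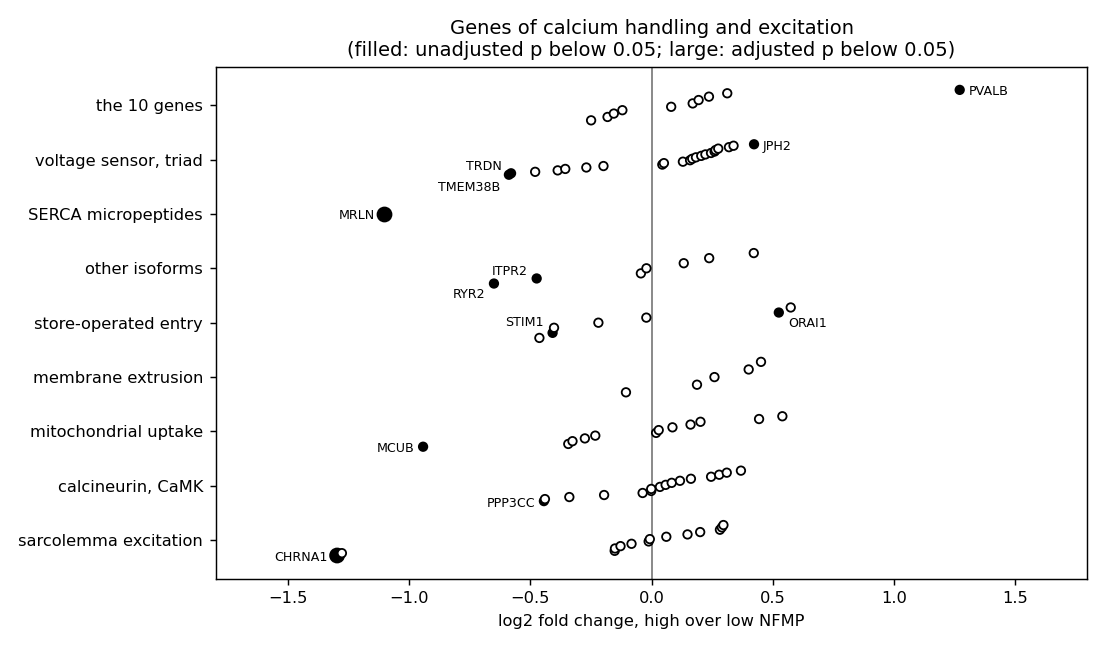
Log2 fold change between high and low NFMP (x axis) of the 10 genes and of the 84 tested genes of 8 pathway lists (rows), 1 point per gene, filled at an unadjusted p below 0.05 and large at an adjusted p below 0.05 by edgeR. MRLN (-1.10) and CHRNA1 (-1.30) are the large points, and the filled points to the right of 0 are PVALB, JPH2 and ORAI1.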

How the data were processed

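RNA sequencing counts of LT from 6 steers were analysed, grouped by their sample labels. The authors made 3′ mRNA libraries (Quant-Seq in the labels). The deposited values are raw counts of reads, 1 row per gene name. The methods name Tophat2 with HTSeq in one place and Bowtie2 in another, and the submitters' processing notes name Bowtie2 and bedtools. How strand was treated is not stated in the sources used here. The 23015 rows hold 176 extra rows of repeated symbols, tested as separate rows, and none of the 10 genes is repeated.

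With edgeR 4.0.16 (R 4.3.3), the default filter (minimum count 10, minimum total 15) kept 15039 rows, between 99.85% and 99.89% of the counts. Groups were compared with TMM normalization and the robust quasi-likelihood test, with group as the only term, and p-values were adjusted (Benjamini-Hochberg) over all tested genes. The biological coefficient of variation was 25.1%. The p and fold change threshold is that of the methods. Standard errors and 95% intervals come from the fitted change and the F statistic. Slow to fast ratios are log2((count + 0.5)/(count + 0.5)), compared by exact permutation over 20 arrangements (scipy 1.17.1). Intervals on counts cover counting error only, since reads carry no molecular identifiers. The procedures were tested on simulated data.

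The 10 genes, the lists and the rule for named genes were chosen with earlier results of these data known. The rule names the 10 genes, rows that overlap or neighbour them and could share their reads, genes of the pathway lists at an unadjusted p below 0.05 by edgeR, the most counted gene of each pathway list, and the 3 most and least alike pairs. Of the most counted genes, 2 are not reported here. Overlaps were read from RefSeq genes on ARS-UCD2.0, which is not the build of the methods, so no coordinates are given.

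The fit was repeated with library totals, RLE factors or scaling to muscle reference genes, unfiltered or with 10 or more counts per library, DESeq2 1.42.0, quantile normalization of log2(CPM + 1) with limma 3.58.1, summed rows of one symbol, the label's leading number or the age as a term, each steer left out, and, for the ratios, a pseudocount of 10.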

Additional observations from a re-analysis of the deposited data

How the results depend on the processing

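The differences of CASQ2, PVALB and MCUB rest on few reads, and each group on 3 steers. In all 16 alternatives the adjusted p of each of the 10 genes stayed above 0.05. The number of the 10 past p and fold change, 1, was 0 after quantile normalization with limma and with age as a term, and 0 to 1 with a steer left out, when the number at an unadjusted p was 0 to 2. The 11 other pathway genes at an unadjusted p became 7 after quantile normalization and 6 to 22 with a steer left out. Over all genes, the 586 past p and fold change were 969 without a filter, 364 with at least 10 counts in every library and 225 after quantile normalization. The 103 at an adjusted p were 240 without a filter, 291 by DESeq2, 51 after quantile normalization, 31 with age and 28 to 82 with a steer left out. The log2 fold change turned for ATP2A1 (-0.076 with the label number as a term, -0.053 to 0.27 with a steer left out), ATP2A2 (0.029 with age), CASQ1 (-0.0096 with the label number, -0.023 to 0.48 with a steer left out), CASQ2 (0.10 after quantile normalization, -0.54 to 0.89 with a steer left out) and SLN (-0.19 after quantile normalization, -0.30 to 0.52 with a steer left out). The difference in the CASQ2 to CASQ1 ratio ran from -0.59 to 0.86 with a steer left out. The cause was not tested, beyond fewer or more genes or steers entering the fit. For CACNA1S the log2 fold change was 0.59 without steer 10-16 (unadjusted p = 0.0456 by edgeR), 0.12 without steer 3-1 and 0.098 with the label number. No paired analysis was possible because the labels number no replicates (those used here follow accession order), and the meaning of the label number is not given.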

Other observations

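MYL3, a slow myosin light chain, was at 3009, 3233 and 3395 normalized counts in high-NFMP steers 3-8, 10-8 and 10-9. In low-NFMP steers 3-1, 3-3 and 10-16 it was at 6326, 6409 and 3799. The groups did not overlap, with steer 10-16 the nearest of the low-NFMP steers. MYL2, also a slow myosin light chain, had a log2 fold change of 0.13 (95% interval -0.41 to 0.67). The slow heavy chain MYH7 had a log2 fold change of 0.32 (95% interval -0.25 to 0.89), and the other listed slow genes apart from MYL3 did not pass in either direction.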
